A study of Mus musculus with 30 samples.

Results

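The genes described here are 10 mouse genes that mark simple epithelium and the epithelium of the colon: the keratins Krt7, Krt8, Krt18, Krt19 and Krt20, the transcription factors Cdx1 and Cdx2, the brush border protein gene Vil1, the adhesion gene Cdh17 and the lectin gene Lgals4. They were chosen by name as markers of this tissue, and each of the 10 was found among the 53431 genes of the count table. The question was which of them are kept and which are absent in the CT-26 and Colon 26 models.

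Both lines, CT-26 and Colon 26, derive from colon carcinoma of BALB/c mice. Poly-A RNA was sequenced from 3 cultures of each line and from tumors grown under the skin of the right flank in BALB/c females, with 4 tumors for every size and model and 3 size classes, which gave 30 libraries in 8 groups. CT-26 tumors measured 103.33 to 145.86 mm3 in the 100 mm3 group, 400.47 to 464.68 mm3 in the 400 mm3 group and 810.36 to 938.57 mm3 in the 800 mm3 group. Colon 26 tumors measured 102.90 to 124.88, 401.52 to 466.73 and 807.93 to 963.18 mm3 in these groups. No label of a sample names an antibody, and the tumors were taken as untreated. Each model rests on 1 cell line, and a tumor library holds RNA of the tumor cells together with that of host cells. A library held 21384697 to 39722554 counts on genes. The Colon 26 cultures, with 36042918 to 39722554 counts, were deeper than the CT-26 cultures, with a median of 23995686. The library numbers place the cultures of each line in a series of their own and the tumors in another, so that batch and model cannot be told apart in culture, nor batch and tissue between culture and tumor. Libraries of a group are named by the letters a to d, which carry no order. The labels give each tumor a volume of its own but do not say which cultures or animals were separate, so p-values measure the spread between these samples, part of which may be technical.

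Keratins of simple epithelia form filaments from pairs of a type II keratin, here Krt7 or Krt8, and a type I keratin, here Krt18, Krt19 or Krt20, and Krt8 with Krt18 is the pair that most simple epithelia carry. Krt20 marks the differentiated surface cells of the gut. Cdx1 and Cdx2 are homeobox factors that set intestinal identity, and villin, cadherin 17 and galectin 4 are products that differentiated intestinal cells make in quantity.

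Levels of different genes were compared as FPKM, fragments scaled to gene length and library size, and levels of one gene in different groups as CPM, counts scaled to the library size after TMM adjustment. A gene was taken as kept in a group at a mean of at least 1 FPKM, as at the floor where no library of the group had over 3 counts, and as a trace otherwise. A count of 3 corresponded to 0.0722 to 0.140 CPM, and floors cover counting error only. By this rule Krt20 and Lgals4 were kept in all 8 groups, and Krt7, Vil1 and Cdx1 in none. Krt18 was kept in the 4 CT-26 groups and in Colon 26 tumors of 800 mm3. Cdx2 was kept in the 4 Colon 26 groups and in no CT-26 group. Cdh17 was kept in 3 Colon 26 groups, all but the tumors of 400 mm3, Krt19 in Colon 26 tumors of 100 and 800 mm3, and Krt8 in Colon 26 tumors of 800 mm3 alone. Each CT-26 group thus kept 3 of the 10 genes, and the Colon 26 groups kept 4 in culture, 5 at 100 mm3, 3 at 400 mm3 and 7 at 800 mm3. At 800 mm3 the Colon 26 means of Krt8 and Krt18 rest on uneven libraries, from 0.019 to 2.54 FPKM and from 0.026 to 3.05 FPKM. In Colon 26 culture Krt18 and Krt19 were at the floor and Krt8 was a trace. The part of host cells in the tumor means was not tested. The count of 3 at 400 mm3 became 5 with a limit of 0.5 FPKM or of 1 CPM. These limits also placed Cdh17 among the kept genes of CT-26, in 3 groups at 0.5 FPKM (all but the tumors of 100 mm3) and in all 4 at 1 CPM, so that its restriction to Colon 26 turns on the limit.

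**Figure D1:**
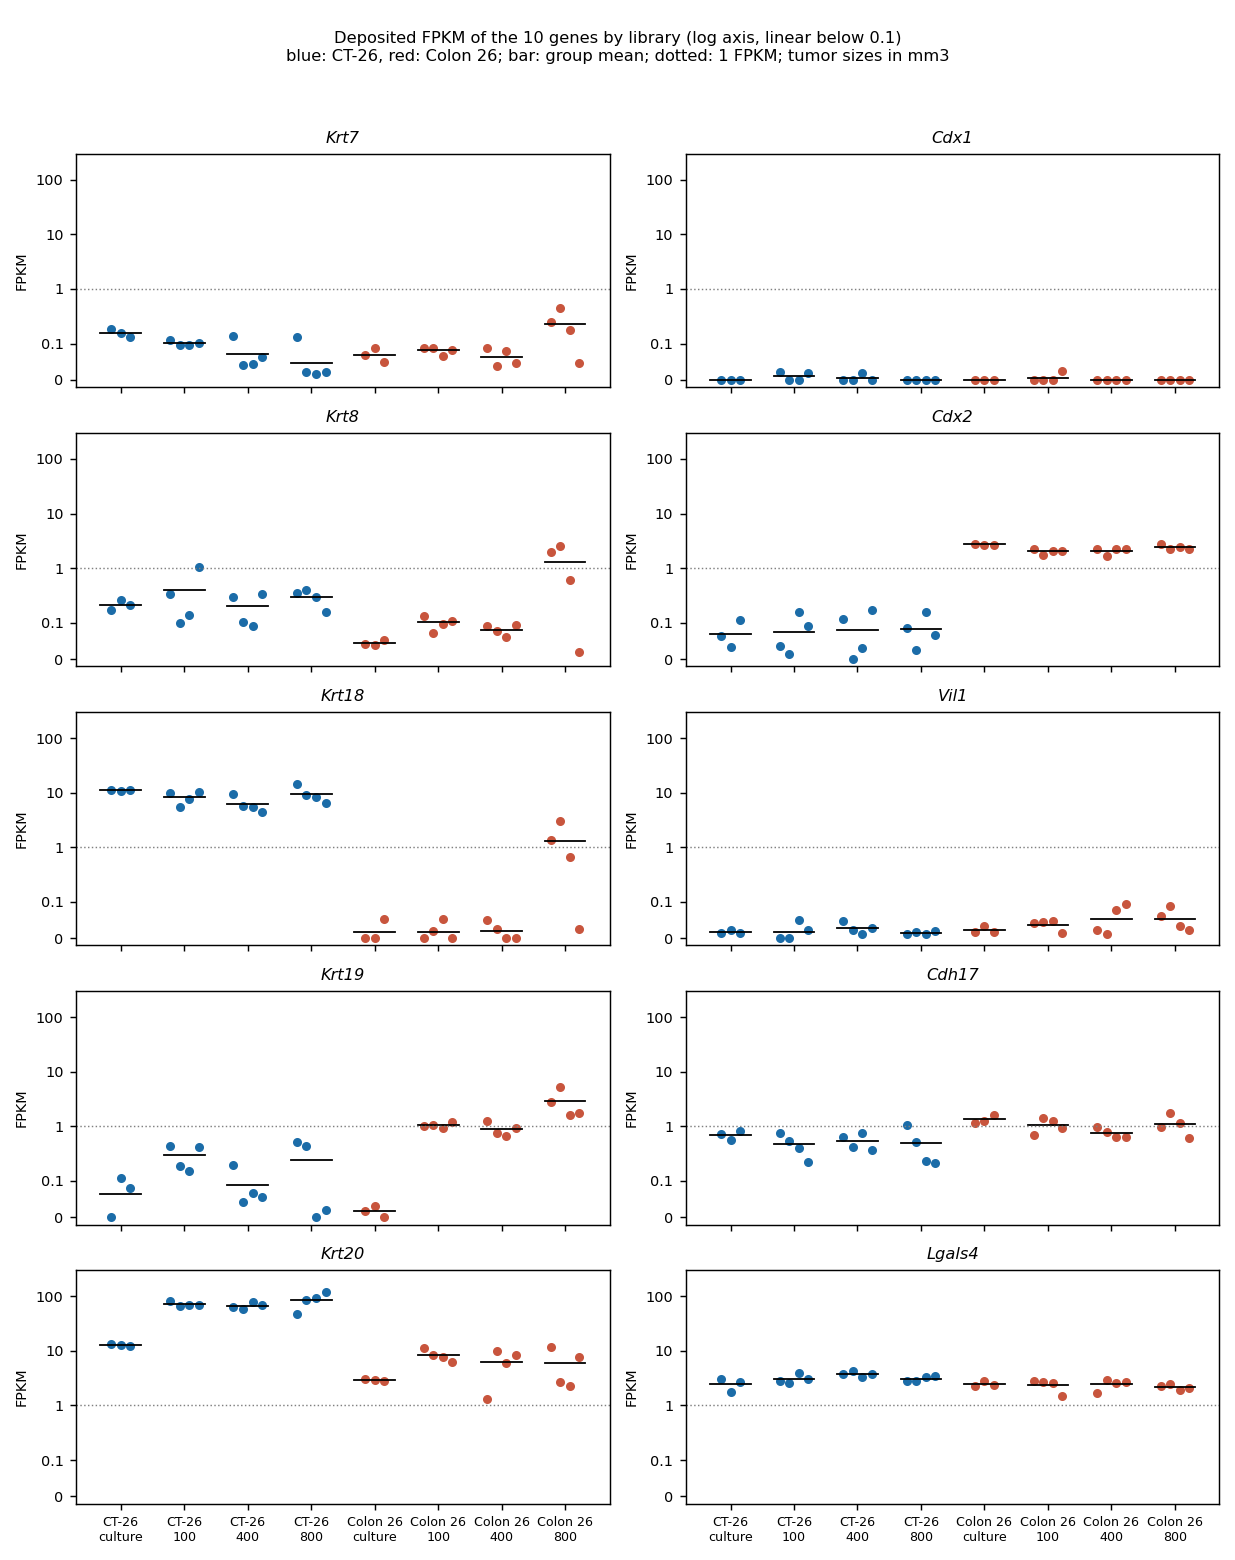
FPKM of each of the 10 genes by library (points, CT-26 blue and Colon 26 red) with the mean of each of the 8 groups (bars) and a dotted line at 1 FPKM, on a log axis that is linear below 0.1. The means of Krt20 and Lgals4 lie above the line in every group, those of Krt18 in the CT-26 groups and those of Cdx2 in the Colon 26 groups, while Cdx1 lies at or near 0 in all 8.

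Among Krt18, Krt19 and Krt20, the last had the highest mean FPKM in every group of both models. The mean level of Krt20 was 12.9 FPKM in CT-26 culture and 72.2, 67.5 and 87.4 FPKM in CT-26 tumors of 100, 400 and 800 mm3. In Colon 26 it was 2.91 FPKM in culture and 8.37, 6.36 and 6.13 FPKM in the tumors. Every CT-26 group thus stood above every Colon 26 group. The sum of the 5 keratins was 24.3 ± 0.237 FPKM (SD, n = 3) in CT-26 culture and 3.06 ± 0.103 FPKM (SD, n = 3) in Colon 26 culture. In tumors of 800 mm3 it was 97.4 ± 26.6 FPKM in CT-26 and 11.8 ± 5.61 FPKM in Colon 26 (SD, n = 4 each).

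The makeup of that sum differed between the groups. In CT-26 culture Krt20 made up 53.0% and Krt18 45.2% of the 5 keratins, while in CT-26 tumors Krt20 made up 88.8, 90.9 and 88.0% at the 3 sizes and Krt18 10.3, 8.56 and 11.2%. In Colon 26 culture Krt20 alone made up 95.2%. Its share was 86.5, 78.8 and 51.7% in the tumors by size, beside Krt19 with 11.4, 17.9 and 25.5%. In single Colon 26 tumors of 800 mm3 the share of Krt20 ran from 19.1 to 80.5%. The type II keratins Krt7 and Krt8 together were a small fraction of the type I keratins: the ratio of their summed FPKM, as the mean over libraries, was 0.0155 in CT-26 culture, 0.00377 to 0.00619 in CT-26 tumors, 0.0380 in Colon 26 culture, 0.0199 and 0.0285 in Colon 26 tumors of 100 and 400 mm3, and 0.147 in those of 800 mm3. The single libraries of 400 mm3 spread from 0.0108 to 0.0667 and those of 800 mm3 from 0.00681 to 0.272. These 5 genes are not all keratins of the libraries. Among 20 other keratins, the type II gene Krt80, named after its values were seen, had mean levels of 14.0 FPKM (CT-26 tumors of 100 mm3) to 36.3 FPKM (Colon 26 culture), and the type I gene Krt10 had 2.47 to 3.55 FPKM.

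**Figure D2:**
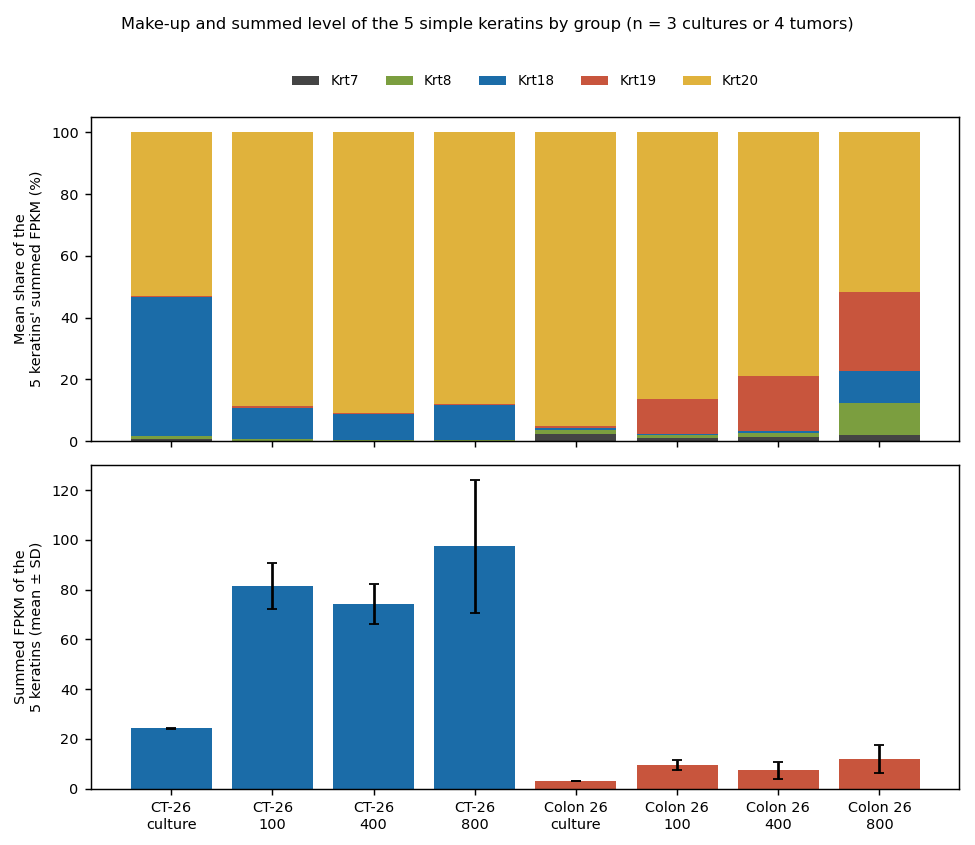
Upper panel, share of each of the 5 keratins in their summed FPKM, in percent, as the mean over the libraries of each group, and lower panel, that sum in FPKM (mean ± SD, n = 3 cultures or 4 tumors). Krt18 makes up 45.2% in CT-26 culture, Krt20 drops to 51.7% in Colon 26 tumors of 800 mm3, and the sums of the CT-26 groups are higher than those of Colon 26.

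The promoters are shown for the 2 keratins of the classical pair and for the 2 genes with large differences between the models, Krt20 and Cdx2. Krt8 (ENSMUSG00000049382) lies on chr15:101996698-102004482, minus strand, and Krt18 (ENSMUSG00000023043) on chr15:102028180-102032027, plus strand, in GRCm38. The pair is divergent, with 23.697 kb between the genes and 0 annotated genes in the gap. Krt20 (ENSMUSG00000035775) lies on chr11:99428403-99438150 and Cdx2 (ENSMUSG00000029646) on chr5:147300805-147307270, both on the minus strand. RefSeq promoters were found for 7 of the 10 genes. Each line gives 100 bases upstream of the first annotated exon, 5′ to 3′ on the strand of the gene, from RefSeq sequence of GRCm38.p6, and capitals mark TATAAA on the printed strand or TTTAT on either strand, 2 motifs that overlap in TATAAA. The stretches are chr15:102004483-102004582 (Krt8), chr15:102028080-102028179 (Krt18), chr11:99438154-99438253 (Krt20) and chr5:147307271-147307370 (Cdx2).
Krt8: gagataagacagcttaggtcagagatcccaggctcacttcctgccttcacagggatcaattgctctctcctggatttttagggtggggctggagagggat
Krt18: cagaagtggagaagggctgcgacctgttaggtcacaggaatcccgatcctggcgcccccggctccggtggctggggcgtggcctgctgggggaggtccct
Krt20: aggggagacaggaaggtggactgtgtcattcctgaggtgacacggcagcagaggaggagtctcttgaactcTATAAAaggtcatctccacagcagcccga
Cdx2: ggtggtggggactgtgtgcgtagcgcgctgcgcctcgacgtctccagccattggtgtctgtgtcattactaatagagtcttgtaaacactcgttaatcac

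Of these 4 stretches, that of Krt20 holds TATAAA, 29 bases upstream of the RefSeq start, and neither motif is in the other 3. Those 3 stretches end before the RefSeq start, with 140 bases left out for Krt8, 36 for Krt18 and 21 for Cdx2 against 0 for Krt20, so that the same distance from the start is not covered for Krt8 and Krt18. Over the 100 bases before the start of 32851 promoters, 3.80% hold TATAAA and 17.5% hold TTTAT on either strand, a window that matches the stretch of Krt20 and not the other 3. A match is a description of letters.

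Krt18 separated the models. In CT-26 culture its 3 libraries stood at 15.7, 16.1 and 16.1 CPM. In CT-26 tumors they stood at 15.1, 7.98, 11.0 and 14.9 CPM at 100 mm3, at 14.4, 8.49, 8.40 and 6.16 CPM at 400 mm3, and at 20.5, 13.4, 12.2 and 9.41 CPM at 800 mm3. In Colon 26 the counts were 0, 0 and 3 in culture, 0, 1, 2 and 0 at 100 mm3, and 2, 1, 0 and 0 at 400 mm3, which is at the floor. No Colon 26 library reached the lowest CT-26 library of the same group. Krt18 was at least 197-fold lower in Colon 26 than in CT-26 in culture (adjusted p = 8.0e-15, edgeR), at least 98.8-fold lower in tumors of 100 mm3 (adjusted p = 3.1e-06) and at least 82.3-fold lower at 400 mm3 (adjusted p = 1.7e-05). In Colon 26 tumors of 800 mm3 it was measured at 1.98, 4.30, 0.926 and 0.0369 CPM in libraries a to d. There the log2 fold change was -2.91 ± 0.66 (SE, adjusted p = 4.1e-03), 7.51-fold lower, and the groups still did not overlap.

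Krt8, the usual partner of Krt18, was low even where Krt18 was kept. Its counts in CT-26 were 7, 14 and 10 in culture, 16, 6, 7 and 59 at 100 mm3, 15, 6, 5 and 15 at 400 mm3, and 18, 28, 18 and 10 at 800 mm3. The ratio of mean Krt8 to mean Krt18 FPKM was 0.0193 in CT-26 culture and 0.0479, 0.0325 and 0.0318 in CT-26 tumors by size, and 1.0 in Colon 26 tumors of 800 mm3. In Colon 26 the counts of Krt8 were 3, 3 and 4 in culture, 8, 5, 5 and 5 at 100 mm3, and 5, 4, 4 and 5 at 400 mm3. They were 121, 163, 35 and 1 at 800 mm3. The libraries with the most Krt8 were therefore b, a and c of the large Colon 26 tumors and d of the small CT-26 tumors. In culture Krt8 was 4.74-fold lower in Colon 26 (log2 fold change -2.25 ± 0.45, adjusted p = 2.4e-04), with no overlap. In tumors of 800 mm3 it was 4.11-fold higher in Colon 26 (log2 fold change 2.04 ± 0.83, adjusted p = 0.063), but the groups overlapped, since library d had 1 count. This call was lost without CT-26 tumor c (adjusted p = 0.12) or d (0.13), or without Colon 26 tumor a (0.14) or b (0.18), and with DESeq2 (0.11), limma on log2 FPKM with 1 added (0.13) or with 0.1 added (0.30) and at an adjusted p of 0.05. It was kept under 9 of 18 alternatives. Krt8 did not pass the filter on low counts in tumors of 100 and 400 mm3. Without the filter it was lower in Colon 26 at both sizes, with log2 fold changes of -2.01 ± 0.69 (adjusted p = 0.052) and -1.33 ± 0.51 (adjusted p = 0.088), so that its direction at 800 mm3 was opposite to that of the other 3 comparisons. The gene overlaps Gm36026 on the other strand, which had 14 counts over all libraries.

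Krt20 differed between the models in every comparison. Its levels in CT-26 culture were 25.4, 25.7 and 24.2 CPM, against 5.68, 5.34 and 5.22 CPM in Colon 26 culture. In tumors of 100 mm3 they were 168, 129, 132 and 133 CPM in CT-26 and 21.1, 15.8, 14.5 and 11.8 CPM in Colon 26. At 400 mm3 they were 127, 117, 165 and 130 CPM against 2.42, 18.9, 11.9 and 15.6 CPM, and at 800 mm3 91.7, 174, 188 and 241 CPM against 23.2, 5.05, 4.17 and 14.6 CPM. The groups did not overlap in any of the 4 comparisons, and Colon 26 tumors a of 400 mm3 and b and c of 800 mm3 lay below the cultured Colon 26 cells. Krt20 was 4.47-fold lower in Colon 26 in culture (log2 fold change -2.16 ± 0.06, adjusted p = 2.7e-14). It was 8.91-fold lower at 100 mm3 (-3.15 ± 0.17, adjusted p = 3.0e-06), 11.1-fold lower at 400 mm3 (-3.47 ± 0.49, adjusted p = 5.7e-04) and 14.9-fold lower at 800 mm3 (-3.89 ± 0.53, adjusted p = 1.6e-04).

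Krt19, the type I keratin without a tail domain, went the other way. Its counts in culture were 0, 5 and 3 in CT-26 and 1, 2 and 0 in Colon 26, and it was not tested there. In CT-26 tumors they were 17, 9, 6 and 19 at 100 mm3, 8, 2, 3 and 2 at 400 mm3, and 21, 25, 0 and 1 at 800 mm3. Colon 26 tumors stood at 1.58, 1.65, 1.46 and 1.82 CPM at 100 mm3, at 1.92, 1.18, 1.08 and 1.41 CPM at 400 mm3, and at 4.50, 8.13, 2.45 and 2.77 CPM at 800 mm3. Every Colon 26 tumor was above every CT-26 tumor of its size. Krt19 was 3.41-fold higher in Colon 26 at 100 mm3 (log2 fold change 1.77 ± 0.34, adjusted p = 2.3e-03), 9.38-fold at 400 mm3 (3.23 ± 0.45, adjusted p = 5.0e-04) and 11.5-fold at 800 mm3 (3.52 ± 0.78, adjusted p = 3.5e-03).

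Krt7, the type II keratin of ductal and glandular epithelium, was a trace in every group, at a mean of 0.047 to 0.231 FPKM. In culture it stood at 0.745, 0.668 and 0.543 CPM in CT-26 and at 0.271, 0.337 and 0.195 CPM in Colon 26, 2.32-fold lower (log2 fold change -1.21 ± 0.33, adjusted p = 3.5e-03) and with no overlap. At 100 mm3 the log2 fold change was -0.37 ± 0.23 (adjusted p = 0.33). In tumors of 800 mm3 the levels were 0.530, 0.0881, 0.0674 and 0.0935 CPM in CT-26 and 1.02, 1.82, 0.694 and 0.184 CPM in Colon 26. There it was 5.01-fold higher in Colon 26 (2.32 ± 0.75, adjusted p = 0.024), with overlap through CT-26 library a and Colon 26 library d. It was not tested at 400 mm3. Its exons overlap those of the antisense gene Gm671, which had 2 counts over all libraries.

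The transcription factor Cdx2 was kept in all 4 Colon 26 groups and in no CT-26 group. Its counts in CT-26 were 3, 2 and 6 in culture, 2, 1, 9 and 6 at 100 mm3, 7, 0, 2 and 9 at 400 mm3, and 5, 2, 11 and 5 at 800 mm3. In Colon 26 it stood at 6.20, 5.70 and 5.91 CPM in culture, 4.85, 3.93, 4.57 and 4.54 CPM at 100 mm3, 4.75, 3.79, 5.14 and 4.88 CPM at 400 mm3, and 6.26, 4.96, 5.36 and 5.02 CPM at 800 mm3. The 15 Colon 26 libraries were all above the 15 CT-26 libraries, and the mean FPKM was 2.72 in Colon 26 culture and 0.068 in CT-26 culture. Cdx2 was 39.4-fold higher in Colon 26 in culture (log2 fold change 5.30 ± 0.24, adjusted p = 4.6e-12). In tumors of 100, 400 and 800 mm3 it was 26.1-fold (4.70 ± 0.44, adjusted p = 4.3e-05), 25.6-fold (4.68 ± 0.62, adjusted p = 3.9e-04) and 27.8-fold higher (4.79 ± 0.35, adjusted p = 3.0e-06). Its paralog Cdx1 (ENSMUSG00000024619) had 0 or 1 count in each of the 30 libraries, was at the floor in all 8 groups and passed the filter in no comparison.

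**Figure D3:**
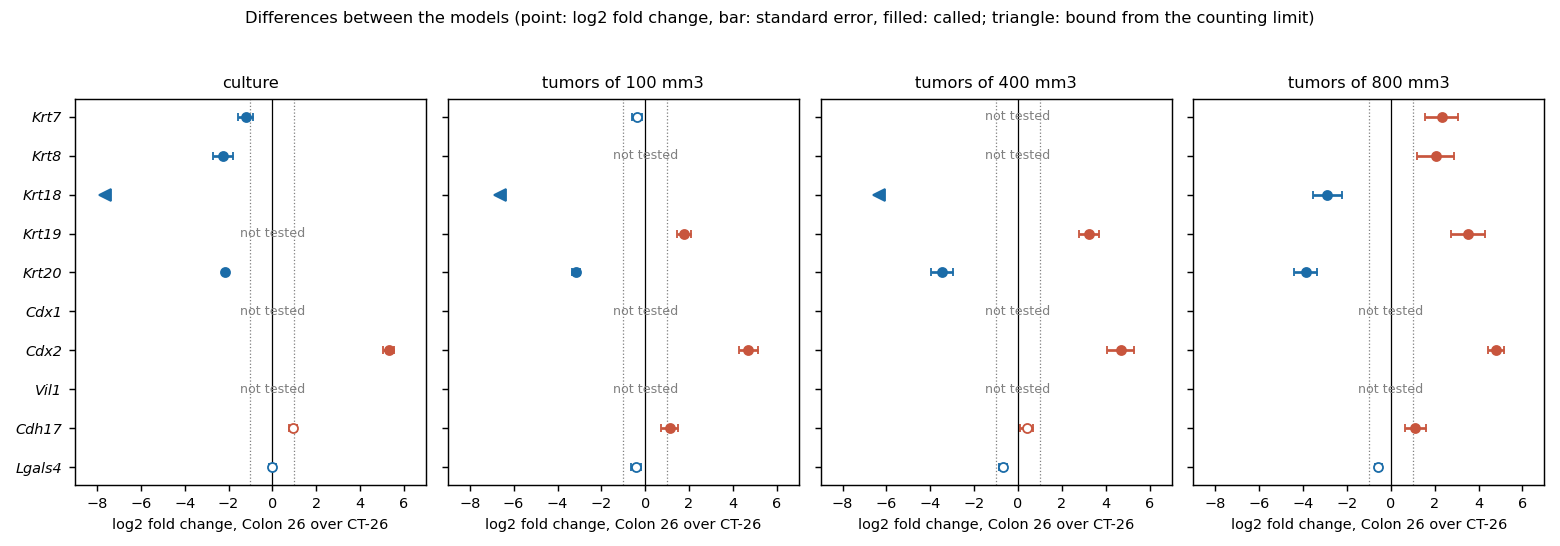
Log2 fold change of Colon 26 over CT-26 with its SE for each tested gene in culture and in tumors of 100, 400 and 800 mm3, with filled points for calls, dotted lines at the fold limit and triangles for bounds against a group at the floor. Krt20 and Krt18 lie below 0 and Cdx2 above 0 in all 4 comparisons, while Krt7 and Krt8 are below 0 in culture and above 0 at 800 mm3.

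Cdh17 and Lgals4, products of the differentiated intestine, differed less. Cdh17 (ENSMUSG00000028217, chr4:11758147-11817895), which encodes the intestinal cadherin 17, stood at 2.47, 2.0 and 2.84 CPM in CT-26 culture and at 3.87, 4.09 and 5.44 CPM in Colon 26 culture. The groups did not overlap, but with a log2 fold change of 0.94 ± 0.17 (adjusted p = 1.0e-04) the gene stayed under the fold limit. At 100 mm3 it was at 2.79, 1.83, 1.36 and 0.755 CPM in CT-26 and at 2.33, 4.76, 4.31 and 3.14 CPM in Colon 26, and at 800 mm3 at 3.67, 1.85, 0.842 and 0.748 against 3.45, 5.86, 3.87 and 2.07 CPM. The groups overlapped at both sizes. It was 2.16-fold higher in Colon 26 at each of them (log2 fold change 1.11 ± 0.38, adjusted p = 0.038, and 1.11 ± 0.49, adjusted p = 0.080), and at 400 mm3 the log2 fold change was 0.40 (adjusted p = 0.29). The call at 100 mm3 was lost without CT-26 tumor d (log2 fold change 0.86) or Colon 26 tumor b (0.96). That at 800 mm3 was lost without CT-26 tumor b (adjusted p = 0.13), c (0.18) or d (0.16), or Colon 26 tumor a (0.10), b (0.20) or c (0.13). In culture it was called without CT-26 culture c (log2 fold change 1.07) or Colon 26 culture a (1.04) or b (1.0).

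Lgals4 (ENSMUSG00000053964, chr7:28833854-28841708), the galectin of intestinal lining cells, was the most even of the kept genes across the 8 groups, whose means ran from 2.99 to 5.42 CPM. Its libraries ranged from 2.52 to 4.24 CPM in CT-26 culture and from 3.06 to 3.73 CPM in Colon 26 culture, with a log2 fold change of -0.00 (adjusted p = 0.99). At 400 mm3 CT-26 tumors stood at 5.48, 6.17, 4.95 and 5.09 CPM and Colon 26 tumors at 2.26, 4.09, 3.60 and 3.61 CPM. At 800 mm3 they stood at 3.90, 4.08, 4.79 and 4.89 against 3.19, 3.41, 2.51 and 2.84 CPM. The groups did not overlap at either size, and the adjusted p of 0.020 and 0.012 was under the threshold, but the log2 fold changes of -0.68 ± 0.20 and -0.57 ± 0.16 were under the fold limit. Vil1 (ENSMUSG00000026175, chr1:74409376-74435559), which encodes the actin bundler villin of the brush border, had 0 to 9 counts per library and a group mean of at most 0.052 FPKM, and passed the filter in no comparison. Its exons overlap those of Usp37 on the other strand, which had 35271 counts, and the handling of strand is not given in the sources used here.

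A gene was called where its adjusted p was 0.1 or less and its log2 fold change was 1 or more in size. In culture 22.9% of 14334 tested genes were called, and of the 10 genes 7 were tested and 5 called, with 1 up and 4 down in Colon 26. At 100 mm3 13.2% of all tested genes were called, and 5 of the 7 tested here, 3 higher and 2 lower. At 400 mm3 the shares were 14.3% and 4 of 6, and at 800 mm3 14.1% and 7 of 8, of which 5 were higher and 2 lower. Krt18, Krt20 and Cdx2 were called in all 4 comparisons in an unchanged direction.

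Growth as a tumor was compared with culture at 100 mm3. A tumor contains other cells, and in bulk RNA fewer cells of a type and less RNA per cell cannot be told apart. Krt20 was 5.61-fold higher in small CT-26 tumors than in CT-26 culture (log2 fold change 2.49 ± 0.10, adjusted p = 7.1e-07) and 2.93-fold higher in small Colon 26 tumors than in Colon 26 culture (1.55 ± 0.18, adjusted p = 5.0e-05). In both models every tumor was above every culture. The difference between these changes was -0.98 ± 0.21 (adjusted p = 1.7e-03), just under the fold limit, and it passed without CT-26 tumor b (-1.01), c (-1.01) or d (-1.01), Colon 26 tumor a (-1.14), CT-26 culture a (-1.0) or b (-1.0), or Colon 26 culture c (-1.02). Krt19 was at least 20.1-fold higher in small Colon 26 tumors than in the cultures, which were at the floor (adjusted p = 2.6e-06), and its change differed between the models (adjusted p = 0.011). In CT-26, where it did not pass the filter, every small tumor was above every culture, with a mean of 0.474 against 0.104 CPM, and without the filter the log2 fold change was 2.06 ± 0.71 (adjusted p = 0.034). It also passed the filter and was called without CT-26 culture a (1.56, adjusted p = 0.071), b (2.75, 0.040) or c (2.17, 0.080). These were the calls among the 10 genes: 1 of 6 tested in CT-26, where 32.2% of all tested genes were called, 2 of 6 in Colon 26, where 26.9% were, and 1 of 8 for the difference of the changes, where 17.6% were.

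The other genes did not pass. Krt18 in CT-26 stood at a log2 fold change of -0.38 (adjusted p = 0.12), Krt8 at 0.91 (0.33) and Krt7 at -0.61 ± 0.26 (0.063). Cdx2 in Colon 26 was at -0.41 ± 0.10 (adjusted p = 6.0e-03), under the fold limit but without overlap. Over the same step the markers of host cells moved with the tumors: of 8 endothelial markers 8 were called higher in each model, of 9 fibroblast and pericyte markers 8, of 8 skeletal muscle markers 8, and of 11 leukocyte markers 9 in CT-26 and 10 in Colon 26. Ptprc, the pan-leukocyte marker, had group means of 0.035 FPKM in culture and 22.0 in small tumors of CT-26, and of 0.007 and 20.4 FPKM in Colon 26. Vim, the filament of mesenchymal cells, had 1022 and 2817 FPKM in CT-26 and 1319 and 4198 FPKM in Colon 26. The part of these cells in the levels of Krt19 and Krt20 was not tested.

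With growth from 100 to 800 mm3, no gene of the 10 was called in CT-26, where 0% of the 15298 tested genes were called by edgeR, with 1610 at an unadjusted p under 0.05 and 39 called by DESeq2. In Colon 26, where 1.33% of 15404 genes were called, Krt19 was 2.73-fold higher (log2 fold change 1.45 ± 0.36, adjusted p = 0.066), and every tumor of 800 mm3 was above every tumor of 100 mm3. It was the only call among 6 genes tested. The call was lost without any of the 4 tumors of 100 mm3 (adjusted p 0.12 to 0.16), without the tumor of 800 mm3 a (0.13) and without b (log2 fold change 0.98). Krt7 had a log2 fold change of 1.50 (adjusted p = 0.17). Krt8 and Krt18 did not pass the filter here, and their groups overlapped through library d of 800 mm3. Without the filter Krt8 was higher at 800 mm3 by 3.66 ± 0.85 on the log2 scale (adjusted p = 0.047), and Krt18, at the floor at 100 mm3 and at least 14.6-fold higher in its mean, had an adjusted p of 0.020. DESeq2 called Krt8 (adjusted p = 0.018) and Krt18 (3.4e-03), as did 1 edgeR fit of all 30 libraries (0.019 and 2.2e-03). Without library d both passed the filter and were called (adjusted p = 0.024 each), as was Krt7 (1.83, adjusted p = 0.066). Library d was the lowest of its group for Krt7, Krt8 and Krt18. Leaving it out keeps only the libraries high in them, so these calls follow from that choice. For the difference between the models in this step, where 0.0308% of all tested genes were called, 0 of 8 genes passed, 114 of all genes were called by DESeq2 and 2031 had an unadjusted p under 0.05. The estimates for Krt8 and Krt7 were 4.03 ± 1.28 (adjusted p = 0.22) and 2.67 ± 0.87 (adjusted p = 0.23), and Krt18, at the floor in 1 group, had an adjusted p of 0.11. DESeq2 called Krt18 (adjusted p = 6.9e-03) and Krt8 (0.048), as did 1 edgeR fit of all 30 libraries (0.029 and 0.079). Krt18 was called without CT-26 tumor a of 100 mm3 (adjusted p = 0.097), CT-26 tumor a of 800 mm3 (0.064) or Colon 26 tumor d of 800 mm3 (0.026), and Krt7 without CT-26 tumor a of 800 mm3 (3.79, adjusted p = 0.051). The refit without Colon 26 tumor d has the limit given above.

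The Colon 26 tumors of 800 mm3 were uneven, and the simple keratins were high in the same libraries. Libraries a, b and c had 62, 144 and 28 counts of Krt18, 121, 163 and 35 of Krt8 and 32, 61 and 21 of Krt7, while library d had 1, 1 and 5. Epcam, an adhesion protein of epithelial cells and no member of the 10, followed the same order with 23, 38, 19 and 1 counts, against 0 to 5 in the Colon 26 tumors of 100 and 400 mm3 and 0 in every culture. Krt19 was also highest in b and a. Cdx2 did not vary in this way, at 6.26, 4.96, 5.36 and 5.02 CPM. Neither did Krt20, which was lowest in b and c. Cdh17 was highest in b and lowest in d, at 5.86 and 2.07 CPM, but was higher in c than in a. Of 24 genes of epithelial junctions and surface, 20, 20, 16 and 12 had over 3 counts in libraries a to d, and of 10 mammary epithelium markers 5, 5, 4 and 2. The 10 mammary markers summed to 4.9, 5.4, 3.6 and 2.4 CPM, and the skeletal muscle markers were at 2.6 to 3.0 CPM, against 134 to 1369 CPM at 100 mm3. The mammary sum was 0.715 to 2.48 CPM in Colon 26 tumors of 100 mm3 and 1.51 to 2.05 CPM at 400 mm3. It was higher in the cultures, at 13.3 to 14.1 CPM in Colon 26 and 187 to 199 CPM in CT-26. In each culture 8 of the 10 mammary markers were at the floor and 2 had at least 1 FPKM, so the sum there rests on few genes. In Colon 26 tumors of 800 mm3 4 were at the floor and 1 had at least 1 FPKM. The part of cells other than the tumor line in these values was not tested.

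Without the 3 tumors with over 10 Epcam counts, an alternative chosen after seeing the data, library d stood alone for Colon 26 at 800 mm3, and its spread was taken to be that of the CT-26 group. The cut removes the 3 tumors of this group with the most Krt7, Krt8 and Krt18, so the fall of these genes was fixed by the choice. Between the models at this size Krt20 was then at a log2 fold change of -3.55 and Cdx2 at 4.70. Krt7 was at -0.0087, Krt19 at 2.84 and Cdh17 at 0.24. Krt18 and Krt8 were at the floor in library d, so that their direction there was lower in Colon 26, as in culture. The change of Krt19 from 100 to 800 mm3 in Colon 26 was then 0.76 on the log2 scale.

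**Figure D4:**
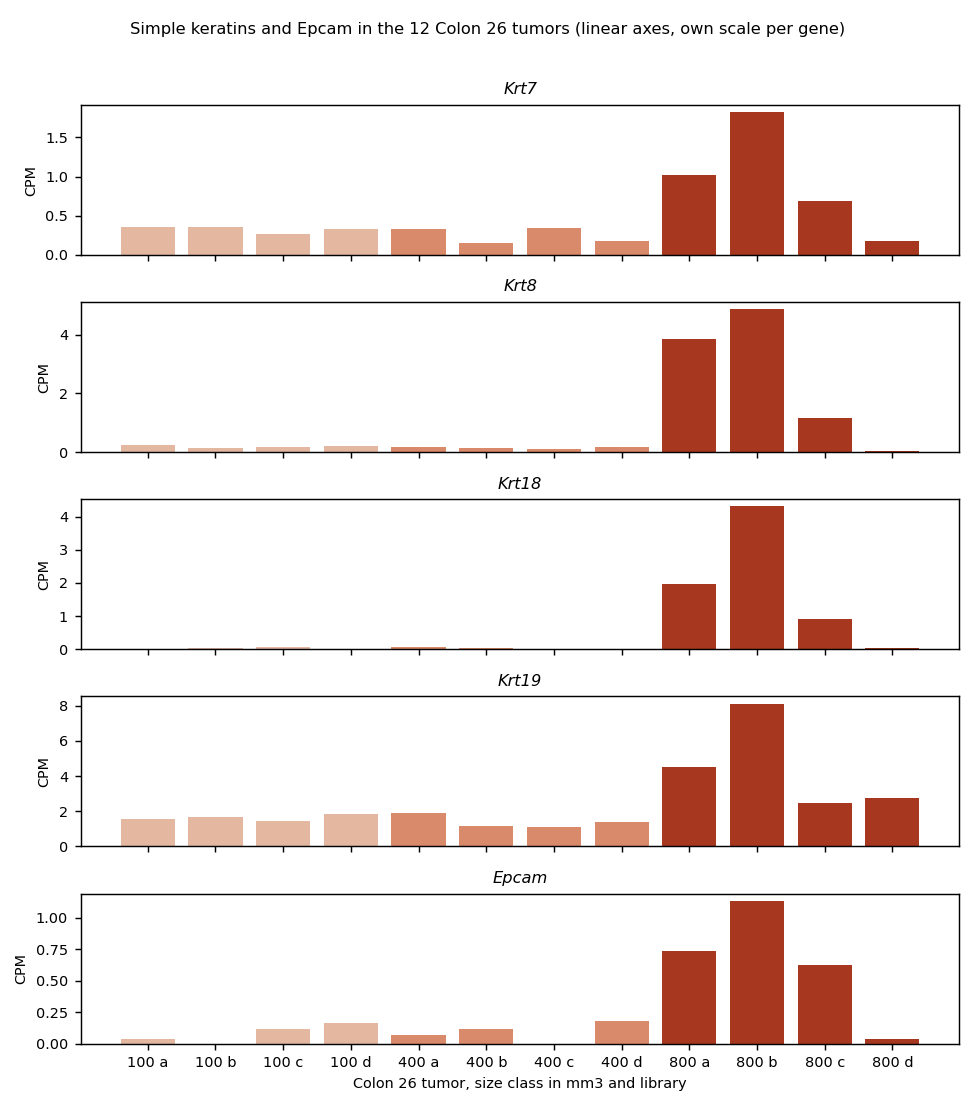
Level in CPM of Krt7, Krt8, Krt18, Krt19 and Epcam in each of the 12 Colon 26 tumor libraries, by tumor size in mm3, with an axis of its own for each gene. All 5 genes are highest in library b of 800 mm3, followed by a, and Krt7, Krt8, Krt18 and Epcam are low in d, where Krt19 is not.

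In CT-26, library d of the 100 mm3 tumors had the most Krt8 of any CT-26 library, 2.02 CPM, with 19 counts of Krt19. Library d of the 800 mm3 tumors had the keratinocyte markers, 12 of 12 over 3 counts and 89.2 CPM in sum, against 4.4 to 5.9 CPM in the other 3 tumors of that group. The 20 other keratins summed to 167 CPM there, led by Krt14 and Krt5, keratins of the basal layer of skin. The simple keratins did not stand out in that library, with 10 counts of Krt8, 1 of Krt19 and 9.41 CPM of Krt18, but its Krt20 level of 241 CPM was the highest of the series.

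Around the 10 genes, some other intestinal and epithelial transcription factors also had RNA. Of 20 other intestinal and epithelial transcription factors the same 6 had a mean of at least 1 FPKM in every group, among them Klf4, Klf5, Foxa1, Gata4 and Sox9. In culture Sox9 (-1.92 ± 0.06) and Klf4 (-1.31 ± 0.03) were lower in Colon 26. Hnf4a, the nuclear receptor of gut and liver, was listed at 0 to 0.0119 FPKM as group means.

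**Figure D5:**
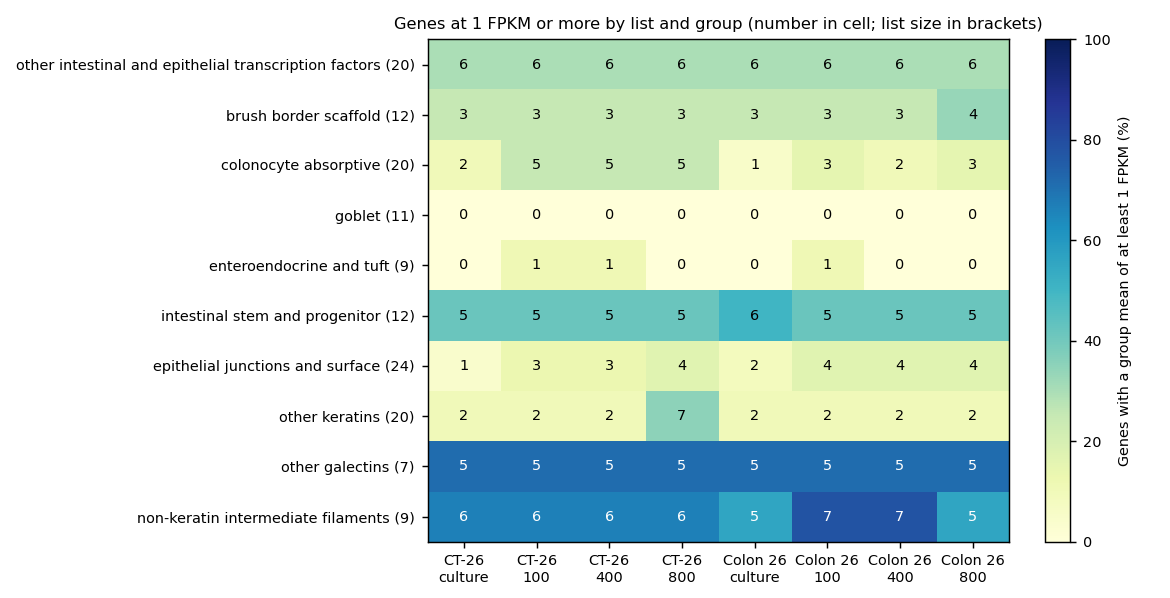
Number of genes with a mean of at least 1 FPKM in each of the 8 groups (number in each cell, shaded by the percent of the list), for 10 lists of epithelial and filament genes with their size in brackets. The transcription factor list gives 6 of 20 in every group, the goblet list 0 of 11, and the list of other keratins 7 of 20 in CT-26 tumors of 800 mm3 against 2 elsewhere.

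Genes of mature colon cells were mostly under 1 FPKM. Of 11 goblet genes 0 reached 1 FPKM in any group, of 20 absorptive colonocyte genes 1 to 5 did, of 9 enteroendocrine and tuft genes 0 or 1, and of 12 brush border scaffold genes 3 or 4. Of 12 stem and progenitor genes, a list apart from these, 5 or 6 did. In culture 1 of 3 tested colonocyte genes was called, Ceacam1, an adhesion molecule of the colonocyte surface, lower in Colon 26 (-5.05 ± 0.11). In tumors 3 of 5, 3 of 5 and 4 of 5 were lower in Colon 26 by size and none higher, with Ceacam1 at -2.01, -2.62 and -3.34 and Aqp8, a water channel, at -3.20, -3.95 and -2.42. Of the brush border genes 3 of 6 tested were called in culture, 2 higher and 1 lower in Colon 26. By size 1 of 8 (1 higher), 2 of 8 (1 higher, 1 lower) and 2 of 8 (2 higher) were called. The median log2 fold change of this list was -0.08 in culture and -0.19, -0.18 and -0.15 by size. Vill, a villin-like gene of the list, was higher in Colon 26 at 1.96, 3.45, 2.85 and 3.49 in culture and by size. Of the stem list Axin2, a feedback target of Wnt signaling, was at least 34.3-fold higher in Colon 26 culture and at 2.47, 2.79 and 2.90 in tumors. Muc4, a mucin of the goblet list, was at 2.42 ± 0.16 in culture and 5.32 ± 0.75 in tumors of 800 mm3. The culture calls of this list were 2 of 2 tested genes, and the gene beside Muc4 had less RNA in Colon 26. By size 0 of 1, 0 of 1 and 1 of 3 tested goblet genes were called.

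Junction genes were few in culture. Of 24 junction and surface genes 1 had at least 1 FPKM in CT-26 culture and 2 in Colon 26 culture, and 3 or 4 in tumors. Cdh1, E-cadherin, had group means of 0.012 and 0.007 FPKM in CT-26 and Colon 26 culture and of 0.290 to 0.667 FPKM in tumors, and Epcam had 0 FPKM in both cultures and at most 0.316 FPKM in tumors. Of 10 junction genes tested in CT-26 7 rose and 1 fell from culture to small tumors, and in Colon 26 9 of 9 rose. In this step 32.2% of all tested genes were called in CT-26, 3406 higher and 1546 lower in tumors. In Colon 26 26.9% were called, 3321 higher and 975 lower. The part of host cells in the rise of the junction genes was not tested. Between the models Pkp3, a plakophilin of desmosomes, was higher in Colon 26 at 2.65, 2.02, 1.58 and 1.68 in culture and by size. In culture Pkp2 was lower (-3.11 ± 0.38) and Jup higher (1.28 ± 0.06), with 2 genes higher and 2 lower of 5 tested.

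The remaining lists differed in how many of their genes reached 1 FPKM. Of 20 other keratins 2 had at least 1 FPKM in every group except CT-26 tumors of 800 mm3, which had 7. Of 7 other galectins 5 did in every group, of 9 non-keratin intermediate filament genes 5 to 7, of 12 keratinocyte markers 1 to 4, of 10 mammary markers 1 or 2, of 6 mesothelium markers 1 and of 7 adipocyte markers 1 to 4. Skeletal muscle markers gave 0 or 1 of 8 in culture and 1 to 8 in tumors, leukocyte markers 2 of 11 in culture and 8 to 10 in tumors, endothelial markers 0 and 7 of 8, and fibroblast and pericyte markers 3 to 5 and 8 or 9 of 9.

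The genes whose levels most resembled those of each kept gene were taken by Pearson's r of log2 CPM over the 30 libraries, among 11491 genes with a mean count of at least 100. These libraries share models, batches and tissues, and r is a description. For Cdx2 they were Lurap1, B530045E10Rik and B4gat1 (r = 0.97 each), for Krt20 Slc25a28 (0.96), Plekha6 (0.95) and Dtnbp1 (0.95), and for Krt18 Slc25a14, Uimc1 and Nol7 (0.93 each). Krt19 was followed by Vkorc1 (0.90), Cfdp1 (0.89) and Washc3 (0.89), Cdh17 by Ccdc191 (0.81), Ggta1 (0.80) and Dtwd1 (0.77), and Lgals4 by 4933407K13Rik (0.80), Btc (0.78) and Rgs20 (0.78). For Krt8 the highest values were 0.58 for Ethe1, 0.57 for Mettl25 and 0.57 for Krt18. Among these 11491 genes Krt8 had none as close to it as those of the other 6. Krt7 and Epcam, with at most 61 and 38 counts in a library, were outside this set. Krt8 itself had a median of 7 counts, and counting noise at such levels lowers r.

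In the order of group means, neighbours mostly overlapped. For Krt18 the step between the CT-26 tumors of 400 mm3 (9.36 CPM) and the Colon 26 tumors of 800 mm3 (1.81 CPM) was the only one without overlap. For Cdx2 it was the step between Colon 26 tumors of 100 mm3 (4.47 CPM) and CT-26 tumors of 800 mm3 (0.194 CPM). For Krt20 the cultured CT-26 cells (25.1 CPM) stood apart both from the CT-26 tumors above and from the Colon 26 tumors of 100 mm3 below (15.8 CPM). For Krt19 the Colon 26 tumors of 800 mm3 (4.46 CPM) stood apart from those of 100 mm3 (1.63 CPM), and those of 400 mm3 (1.40 CPM) from the CT-26 tumors of 100 mm3 (0.474 CPM). No step among the group means of Cdh17, Vil1 or Cdx1 was free of overlap.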

How the data were processed

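RNA-seq was measured in 30 libraries, 3 cultures each of CT-26 and Colon 26 cells and 4 tumors of each model at 3 sizes, grouped by the model, tissue and volume in the labels. The authors used Array Studio to count reads on the Ensembl release 78 genes. The aligner, genome build and handling of strand are not given in the sources used here. The authors deposited estimated counts, of which 23.0% of the non-zero values are not whole and which were rounded, and they deposited FPKM, used for levels only. Symbols and GRCm38 coordinates came from GENCODE, which held 52207 of 53431 identifiers (97.7%). There were 0 unused columns of single libraries. The depth and floor values cover counting error only.

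Comparisons used edgeR 4.0.16 (quasi-likelihood test, TMM, edgeR's filter on low counts, R 4.3.3, limma 3.58.1) with Benjamini-Hochberg adjustment over all genes tested, and only the libraries compared in each fit. Thresholds were those of the study, which used DESeq2 1.24.0. Standard errors came from the F statistic. Interaction terms tested differences between changes. The test was tested on simulated data. In the 42 pairs of replicates, the variance of the difference was 3.10 to 5.03 times that of counting noise in cultures and 11.5 to 89.9 times in tumors. No pair was counted as 1 sample. The small p-values in culture rest on this narrower spread. Levels used Python 3.11.15, pandas 2.3.3 and numpy 2.4.6, and plots matplotlib 3.10.9.

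Of 222 list genes 221 were found. The 10 genes and the 18 other lists were chosen with earlier results of these data known, and they support nothing by their choice. Named are all 10 genes, from each list the 2 called genes at each end among groups without overlap (given in part, and some results are not reported here), the 3 genes most like each kept gene, and Epcam, Cdh1, Vim and Ptprc. Alternatives were DESeq2 1.42.0, no filter, a filter of 10 counts in every library, all 30 libraries in 1 fit, limma on log2 FPKM with 1 or 0.1 added, other normalizations, an adjusted p of 0.05, no minimum fold, leaving out each library, and, chosen after seeing the data, leaving out tumors with over 10 Epcam counts.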

Additional observations from a re-analysis of the deposited data

Results flagged for a closer look

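In 51 groups of 4 tumors tested for a library apart (by the gap to its neighbour over the range of the group), 3 were found, and chance gives about 1 in 20. Krt7 in CT-26 tumors of 800 mm3 was at 0.530 CPM in library a, against 0.0674 to 0.0935 CPM in the others. Krt20 in CT-26 tumors of 100 mm3 was at 168 CPM in library a, against 129 to 133 CPM. Lgals4 in Colon 26 tumors of 100 mm3 was at 1.98 CPM in library d, against 3.56 to 3.71 CPM. The change of Krt19 from culture to tumors of 100 mm3 differed between the models by the interaction test of edgeR (adjusted p = 0.011), being larger in Colon 26. In both models 4 of 4 tumors were above all 3 cultures.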

How the results depend on the processing

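No paired analysis was possible because the labels carry no replicate numbers. Krt18, Krt20 and Cdx2 kept their calls between the models in all 4 comparisons under every alternative in which they were tested. Counts of the 10 genes called moved by over 1.5 times as follows. Between the models they were 1 in culture, 2 at 100 mm3, 1 at 400 mm3 and 2 at 800 mm3 with at least 10 counts in every library, and 3, 3 and 4 in culture, at 100 mm3 and at 800 mm3 with limma on log2(FPKM + 1). At 800 mm3 the count also moved without the tumors of over 10 Epcam counts, a refit that leaves 1 Colon 26 tumor. For CT-26 tumors against culture they were 2 with no minimum fold, DESeq2, no filter or 1 fit of 30 libraries. For Colon 26 tumors against culture they were 1 under the 10-count filter. For Colon 26 from 100 to 800 mm3 they were 0 at an adjusted p of 0.05, with limma on log2(FPKM + 1) or without the Epcam tumors, 3 with DESeq2 or no filter and 2 with 1 fit. For the difference of the models between culture and 100 mm3 they were 2 with no minimum fold, no filter or limma on log2(FPKM + 0.1), and 0 under the 10-count filter. Between 100 and 800 mm3 they were 2 with DESeq2 or 1 fit. Leaving out 1 library gave 5 to 6, 4 to 5, 4 to 4 and 5 to 7 calls between the models in culture and by size, 1 to 2 and 2 to 2 for CT-26 and Colon 26 against culture, 0 to 0 and 0 to 4 from 100 to 800 mm3, and 1 to 2 and 0 to 2 for the differences of the models. Of 69 values of single genes, 26 of them called, leaving out 1 library changed the call in 34 of 638 refits and other settings in 36 of 677. Krt7 in the difference of the models between culture and 100 mm3 was called without Colon 26 culture b (1.05, adjusted p = 0.073). Krt7 and Krt8 at 800 mm3 turned without the Epcam tumors, to -0.0087 and -3.88, the latter a fitted value at the floor and no bound. That cut removes the tumors high in both genes, so their fall was fixed by it. By CPM the ratio of type II to type I keratins was 0.0260 in CT-26 culture, 0.0643 in Colon 26 culture and 0.0307 and 0.0466 in Colon 26 tumors of 100 and 400 mm3. Genes kept in Colon 26 tumors of 400 mm3 were 5 with 0.5 FPKM or 1 CPM. The stricter filter and the log scale with 1 added leave out or shrink genes of low level. Causes of the other moves were not tested. Depth limits the genes at the floor, where folds are bounds.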
